A study of Mus musculus with 7 samples.

Results

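Genes encoding proteins of the dense-core secretory granule, the compartment in which islet cells store and mature their peptide hormones, were compared between islets lacking FoxO1, FoxO3 and FoxO4 in beta cells and control islets. The set was a list of 10 named genes, namely the granins Chga, Chgb, Scg2, Scg3 and Scg5, the granule membrane proteins Ptprn and Ptprn2, and the processing enzymes Pcsk1, Pcsk2 and Cpe. A gene was taken where a probe set carried its symbol and no other, with the brightest probe set kept for a gene with several. This gave 9 of the 14807 named genes on the array, each with 1 probe set, and Pcsk2 was not analysed here.

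The samples were whole pancreatic islets from 7 mouse samples of the mixed background 129 x FVBn x C57BL/6, in 4 control samples (titled WT, numbered 1 to 4) and 3 samples with FoxO1, FoxO3 and FoxO4 deleted in beta cells (titled R+KO, source b-FoxO triple KO, numbered 5 to 7). Per the labels, knockout and control mice were littermates of the same age and sex with free access to food, and no treatment is listed. The age, the sex, the promoter that drove the deletion, the meaning of R+ in the titles and the number of animals in a sample are unstated in the sources used here, so p-values measure the spread between these samples, which may be technical. Values are log2 RMA expression values from Affymetrix arrays, and differences are knockout minus control on that scale, with the standard error of limma's moderated test. The number of arrays limits the precision.

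Granins are acidic proteins that aggregate with hormones in the trans-Golgi network as granules form, and several are precursors of peptides themselves. Inside the acidifying granule, proinsulin and other prohormones are cut after pairs of basic residues by prohormone convertases, and carboxypeptidase E then trims the basic residues left at the new ends. Ptprn and Ptprn2 span the granule membrane. They are related to receptor protein tyrosine phosphatases, and both are autoantigens in human autoimmune diabetes. Insulin acting through Akt drives FoxO transcription factors from the nucleus.

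At an adjusted p of 0.05 in limma 0 of the 9 genes passed, where 0.00675% of all genes did, and their adjusted p values ran from 0.362 to 0.958. At an unadjusted p under 0.05, 2 of the 9, Ptprn and Ptprn2, were lower in knockout islets, where 2.14% of all genes were, and 0 were higher, where 11.6% were. The groups did not overlap for 4 of the 9. Ptprn, Ptprn2 and Chgb were lower in every knockout sample than in every control sample, as were 1.94% of all genes, and Scg2 was higher in every knockout sample, as were 8.99%. The median difference of all genes was 0.077, and that of genes above the median signal was 0.16. The differences of the 9 ran from -0.39 for Ptprn to 0.21 for Pcsk1, with a median of -0.014. They had no common sign, with 4 positive, as were 68.4% of all genes, and 5 negative, as were 31.6%.

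**Figure D1:**
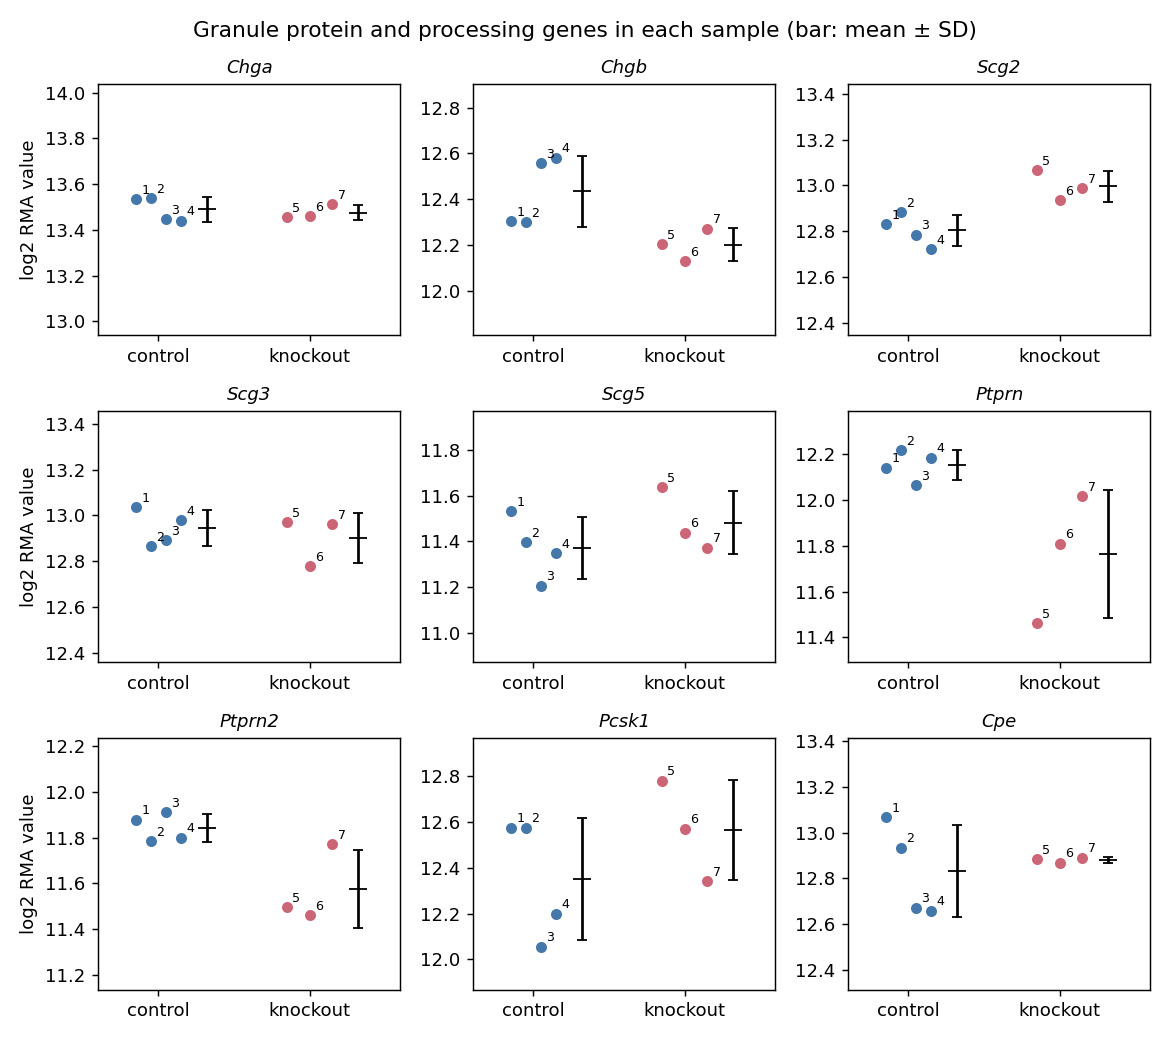
Log2 RMA value of each gene (vertical axis, spanning the same range of log2 units in every panel) in the 4 control samples (blue, numbered 1 to 4) and the 3 knockout samples (red, numbered 5 to 7), with the mean and SD of each group as bars. Ptprn, Ptprn2 and Chgb sit lower in all 3 knockout samples than in any control, Scg2 sits higher, and the groups overlap for the other 5 genes.

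All 9 probe sets were bright, with mean signals between the 98.0th and the 99.97th percentile of the named genes. Near the top of the scale an array compresses differences, which bears most on Chga, whose values lay close to the highest values on the arrays (14.08 to 14.28). On the first principal component of all named genes controls 3 and 4 stood apart, at 43.2 and 30.3. The other 5 samples lay between -29.0 and -3.40. Of these, knockouts 5 and 6 were at -29.0 and -25.8, and knockout 7, at -3.40, lay near controls 1 and 2, at -8.37 and -7.01. The upper quartiles of signal of controls 3 and 4 were 8.63 and 8.81 against 8.88 to 8.95 elsewhere. The mean of 15 measured immediate early genes, whose transcripts appear soon after stimulation or handling, had its highest values, 10.95 and 10.94, in these controls. Controls 1 and 2 had means of 10.29 and 9.66, and the knockout samples, taken in number order, had means of 9.91, 9.53 and 10.54. Its part in the results below was not tested, and the larger moves of a difference on leaving out these controls are given beside it.

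The tissue label was borne out by hormone transcripts. Across the 7 samples Ins2 lay between 12.79 and 13.22, Gcg between 13.53 and 13.64, Sst between 13.55 and 13.72 and Ppy between 13.59 and 13.98. The mean markers of endocrine cell types overlapped between the groups. Gcg, Sst, Ppy and the beta cell gene Iapp were brighter than Chga, so the limit on bright signals applies to them. The means that hold them could thus show little of a change in these transcripts. They ran from 11.54 to 11.72 in controls and from 11.59 to 11.79 in knockouts for 10 beta cell genes. Those of 5 alpha cell genes were 10.38 to 10.77 and 10.59 to 11.02. Those of 4 delta and PP cell genes were 11.80 to 11.90 and 11.74 to 11.98. These means hide single genes, none of which passed over all genes. Of the beta cell genes, G6pc2 was higher in every knockout sample than in every control and Slc30a8 lower. They differed by 0.39 (SE 0.17) and -0.24 (SE 0.11). The alpha cell gene Pou3f4 ran from 5.79 to 6.94 in controls and from 6.52 to 8.03 in knockouts (limma, unadjusted p = 0.0151). The groups overlapped for Pou3f4 and the other genes of these lists. The mean of the acinar genes (7 measured, Ctrb1, Cpa1 and Cpb1 the brightest) ranged from 8.75 to 10.24 in controls and from 9.47 to 10.20 in knockouts. The means of endothelial (6 genes, led by Cdh5, Plvap and Kdr), immune (5, Cd74, Csf1r, Cd68), stromal (6, Acta2, Pdgfrb, Col1a2), duct (3, Sox9, Muc1, Krt19) and glial genes (3, Sox10, S100b, Gfap) also overlapped. Differences were negative for 5 of the 6 endothelial and 4 of the 5 immune genes, where 31.6% of all genes were negative. They were positive for 4 stromal, 2 duct and 3 glial genes. Kdr differed by -0.45 (SE 0.17, limma, unadjusted p = 0.0295, adjusted p = 0.362), with overlapping groups. RMA gives no detection call, so no marker could be called absent. In whole islets fewer cells of a type and less RNA per cell cannot be told apart, and endocrine cells other than beta cells share these granule proteins and keep their FoxO genes. Of the deleted genes Foxo4 differed by -0.47 (SE 0.16), Foxo3 by -0.16 (SE 0.11) and Foxo1 by -0.26 (SE 0.17), none past limma's threshold (adjusted p = 0.362, 0.486 and 0.490), and Foxo6, which was not targeted, by 0.07 (SE 0.15).

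Of the 5 granins, Chgb had lower and Scg2 higher values in every knockout sample than in every control, and the groups overlapped for Chga, Scg3 and Scg5. Chga, the chromogranin used as a general marker of neuroendocrine cells and a factor in granule formation, was at 13.54, 13.54, 13.45 and 13.44 in controls 1 to 4 and at 13.45, 13.46 and 13.51 in knockouts 5 to 7. The groups overlapped, and the difference was -0.014 (SE 0.085, 95% interval -0.21 to 0.18, limma, adjusted p = 0.958), or -0.061 (SE 0.10) without controls 3 and 4. Chgb, the second large granin of beta cell granules, was at 12.30, 12.30, 12.56 and 12.58 in controls and at 12.20, 12.13 and 12.27 in knockouts. All 3 knockout values were below all 4 controls, but controls 1 and 2 lay closer to the knockout samples than to controls 3 and 4. The group means were 12.43 ± 0.16 (SD, n = 4) and 12.20 ± 0.07 (SD, n = 3), a difference of -0.23 (SE 0.11, 95% interval -0.49 to 0.020) and a fold of 0.850, which did not pass (limma, adjusted p = 0.375). Without controls 3 and 4 the difference of Chgb was -0.10 (SE 0.11), and after quantile normalization, which matches the bright end of the arrays, it was -0.37 (SE 0.14).

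Scg2 encodes secretogranin II, the precursor of secretoneurin, and was the one granin whose knockout values all lay above the controls. It was at 12.83, 12.88, 12.78 and 12.72 in controls 1 to 4 and at 13.07, 12.93 and 12.99 in knockouts 5 to 7. The highest control, control 2, lay 0.052 below the lowest knockout, knockout 6. The means were 12.80 ± 0.068 (SD, n = 4) and 12.996 ± 0.067 (SD, n = 3), a difference of 0.19 (SE 0.089, 95% interval -0.014 to 0.40) and a fold of 1.14, short of the threshold (limma, adjusted p = 0.375). With each sample centred on its own median, the difference of Scg2 was 0.056, the groups overlapped, and the median of all genes was -0.058. In the values as deposited the median of all genes was 0.077, and the difference of Scg2 was 0.11 above it. Centring shifts the differences of all genes by the same amount, so Scg2 stayed as far above their median. Genes above the median signal, as Scg2 is, had a median of 0.16, closer to the 0.19 of Scg2.

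The remaining granins showed smaller differences with overlapping groups. Scg3, which encodes secretogranin III, a binding partner of chromogranin A at the granule membrane, ran from 12.87 to 13.04 in controls and from 12.78 to 12.97 in knockouts, a difference of -0.041 (SE 0.097, 95% interval -0.26 to 0.18). Scg5 encodes the chaperone that the Pcsk2 convertase needs in order to mature. It ran from 11.21 in control 3 to 11.53 in control 1 and from 11.37 in knockout 7 to 11.64 in knockout 5, a difference of 0.11 (SE 0.11, 95% interval -0.15 to 0.37). Neither passed limma's test (adjusted p = 0.887 for Scg3 and 0.688 for Scg5). The difference of Scg5 was 0.019 (SE 0.13) without controls 3 and 4. Its sign turned after quantile normalization, at -0.076, and with each sample centred, at -0.024, and that of Scg3 turned without knockout 6, at 0.022.

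Promoter sequences from RefSeq (GRCm38.p6, 250 bases before to 50 after a start site) were found for 9 of the 10 listed genes, 8 of them measured, with 2 starts for Ptprn. They were searched on both strands for TGACGTCA, the cAMP response element, for its half-site TGACG, which every full element also holds, and for GTAAACA, a sequence that FoxO and other forkhead proteins recognise. The full element was in 3 of the 8 measured genes, Chgb, Scg2 and Pcsk1, and in 1.79% of 32851 mouse promoters of the same length. The half-site was in 7 of the 8 and in 20.8% of all promoters, and GTAAACA was in 1 of the 8, Pcsk1, and in 3.65% of all. The promoters of Chgb and Scg2 are shown because these granins share the element at nearly the same place, starting 72 and 68 bases before the start site, while their knockout values lay on opposite sides of the controls. Capitals mark TGACGTCA.
Chgb, chr2:132781392-132781691, plus strand: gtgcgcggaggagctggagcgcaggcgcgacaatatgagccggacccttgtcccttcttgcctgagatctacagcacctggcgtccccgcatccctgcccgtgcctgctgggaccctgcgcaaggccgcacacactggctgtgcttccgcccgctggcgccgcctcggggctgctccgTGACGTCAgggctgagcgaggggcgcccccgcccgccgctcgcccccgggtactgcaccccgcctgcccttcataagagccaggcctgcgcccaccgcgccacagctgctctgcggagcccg
Scg2, chr1:79439977-79440276, minus strand: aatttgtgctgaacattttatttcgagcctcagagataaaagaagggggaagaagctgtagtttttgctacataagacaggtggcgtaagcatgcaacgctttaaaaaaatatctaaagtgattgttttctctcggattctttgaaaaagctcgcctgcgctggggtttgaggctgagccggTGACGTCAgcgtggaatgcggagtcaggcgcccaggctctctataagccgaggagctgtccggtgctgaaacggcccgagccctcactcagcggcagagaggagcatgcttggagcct
The matches describe letters in these windows and were not tested for any activity.

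The granule membrane proteins had the smallest p values of the set, and both were lower in knockout islets. Ptprn, whose cytoplasmic tail takes part in signalling from the granule to the nucleus and in granule stability, was at 12.14, 12.22, 12.07 and 12.18 in controls 1 to 4. In knockouts 5, 6 and 7 it was at 11.46, 11.81 and 12.02. The controls lay within 0.15 of each other, while the knockouts spread widely, with knockout 5 far below and knockout 7 just under control 3. The means were 12.15 ± 0.07 (SD, n = 4) and 11.76 ± 0.28 (SD, n = 3), a difference of -0.39 (SE 0.14, 95% interval -0.70 to -0.077) and a fold of 0.763. Its unadjusted p was 0.0205 and its adjusted p 0.362 in limma, so Ptprn did not pass over all genes. Without knockout 5 the difference was -0.24 (SE 0.11, unadjusted p = 0.0755 in limma). It was -0.42 (SE 0.17) when controls 3 and 4 were left out, close to the value with all samples.

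Ptprn2, which encodes phogrin, the closest relative of Ptprn, was at 11.88, 11.78, 11.91 and 11.80 in controls 1 to 4 and at 11.50, 11.46 and 11.77 in knockouts 5 to 7. Knockouts 5 and 6 were well below the controls, whereas knockout 7 lay 0.012 under control 2. The means were 11.84 ± 0.06 (SD, n = 4) and 11.58 ± 0.17 (SD, n = 3), a difference of -0.27 (SE 0.11, 95% interval -0.51 to -0.022) and a fold of 0.831. The unadjusted p was 0.0361 and the adjusted p 0.362 in limma. After quantile normalization the difference was -0.44 (SE 0.14) for Ptprn2 and -0.54 (SE 0.16) for Ptprn, with adjusted p values of 0.359 for both in limma. In both genes knockout 7 was the knockout sample nearest to the controls, as it was on the first principal component of all named genes.

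Ptprn is shown with the promoter at the upstream of its 2 starts, which holds half-sites starting 117 and 80 bases before the start site, and Ptprn2 with its 1 promoter, which holds none of the 3 sequences, as was the case at the downstream start of Ptprn. Capitals mark TGACG or its reverse complement.
Ptprn, chr1:75264159-75264458, minus strand: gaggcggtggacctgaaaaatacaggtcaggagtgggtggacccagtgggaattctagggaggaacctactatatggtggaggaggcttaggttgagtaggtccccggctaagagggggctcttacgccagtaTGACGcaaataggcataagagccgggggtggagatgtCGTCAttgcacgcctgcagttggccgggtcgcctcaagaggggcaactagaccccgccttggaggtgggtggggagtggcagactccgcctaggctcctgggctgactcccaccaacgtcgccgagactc
Ptprn2, chr12:116485470-116485769, plus strand: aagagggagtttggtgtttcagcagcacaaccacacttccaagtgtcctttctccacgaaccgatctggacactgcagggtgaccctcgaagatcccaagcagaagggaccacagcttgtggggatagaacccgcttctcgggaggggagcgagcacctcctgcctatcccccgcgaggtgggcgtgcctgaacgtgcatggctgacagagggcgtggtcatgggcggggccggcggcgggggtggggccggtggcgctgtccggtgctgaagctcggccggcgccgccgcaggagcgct
These 2 genes with the lowest p values lacked GTAAACA in the windows searched, as most promoters do, since 3.65% of all hold it. Its absence says nothing of FoxO binding elsewhere.

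By the root mean square difference of the 7 values, each gene centred on its own mean, the named genes closest to Ptprn were Setbp1 at 0.047, Slc43a2 at 0.068 and Sbno2 at 0.069 log2 units. Setbp1, which encodes a SET-binding nuclear protein, was at 8.78, 8.89, 8.78 and 8.95 in controls 1 to 4 and at 8.24, 8.56 and 8.71 in knockouts 5 to 7. The order of the knockouts, 5 lowest and 7 highest, was that of Ptprn. Slc43a2, an amino acid transporter gene, differed by -0.38 (SE 0.12) and Sbno2 by -0.31 (SE 0.12), both with an adjusted p of 0.362 in limma. The likeness rests on 7 samples and was taken from the same values as the difference of Ptprn.

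The processing enzymes overlapped between the groups. Pcsk1 encodes the convertase that starts proinsulin cleavage in beta cells. It was at 12.58, 12.58, 12.06 and 12.20 in controls 1 to 4 and at 12.78, 12.57 and 12.34 in knockouts 5 to 7. Controls 1 and 2 were level with knockout 6, and controls 3 and 4 were the lowest of all samples. The means were 12.35 ± 0.27 (SD, n = 4) and 12.57 ± 0.22 (SD, n = 3), a difference of 0.21 (SE 0.17, 95% interval -0.17 to 0.60), which did not pass (limma, adjusted p = 0.581). The difference of Pcsk1 was -0.011 (SE 0.15) without controls 3 and 4. Its promoter is shown because it was the only one of the 8 to hold GTAAACA, starting 44 bases before the start site, next to a half-site at 50 and a full cAMP response element at 78 bases before it. Capitals mark these 3 matches.
Pcsk1, chr13:75089607-75089906, plus strand: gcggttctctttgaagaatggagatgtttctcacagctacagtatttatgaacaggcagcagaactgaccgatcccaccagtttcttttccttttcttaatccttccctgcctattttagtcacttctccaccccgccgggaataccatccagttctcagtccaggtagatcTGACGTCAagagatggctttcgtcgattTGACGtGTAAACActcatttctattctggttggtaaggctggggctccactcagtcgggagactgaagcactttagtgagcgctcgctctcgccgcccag

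Cpe encodes carboxypeptidase E, which finishes the ends left by the convertases and has been described as a sorting receptor for prohormones. It was at 13.07, 12.94, 12.67 and 12.66 in controls 1 to 4 and at 12.88, 12.87 and 12.89 in knockouts 5 to 7. The knockout samples lay within 0.023 of each other, between controls 1 and 2 above and controls 3 and 4 below. The difference was 0.047 (SE 0.12, 95% interval -0.24 to 0.33, limma, adjusted p = 0.897). Its sign turned in 6 of 16 alternatives, to -0.12 (SE 0.11) without controls 3 and 4.

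**Figure D2:**
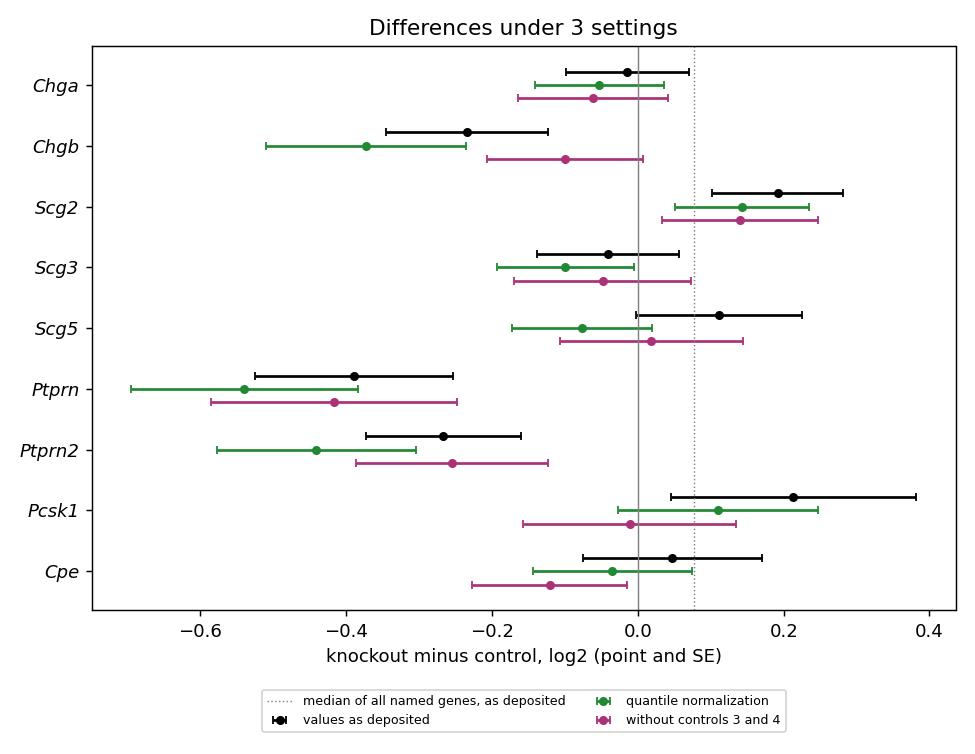
Knockout minus control difference in log2 units (horizontal axis) of each gene with its standard error, in the values as deposited (black), after quantile normalization (green) and without controls 3 and 4 (purple); the dotted line is the median of all named genes, 0.077. Ptprn, Ptprn2, Chgb, Chga and Scg3 lie below 0 in all 3 settings, Scg2 above 0, and Scg5, Pcsk1 and Cpe lie on both sides of 0.

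Each gene was also set against the mean of the other 8 in the same sample, which removes a shift of the whole set in a sample. This alternative was chosen after seeing the data and has no test. The mean of the other genes holds those that differ. Lower knockout values of Ptprn, Ptprn2 and Chgb thus raise the relative differences of the other genes. Scg2, at 0.19 unscaled, is among these. On this relative scale Ptprn differed by -0.39, from -0.36 ± 0.075 (SD, n = 4) in controls to -0.75 ± 0.31 (SD, n = 3) in knockouts, and the groups did not overlap. Scg2 differed by 0.26, from 0.38 ± 0.064 (SD, n = 4) to 0.64 ± 0.058 (SD, n = 3), also without overlap. The groups of Ptprn2 and Chgb overlapped on this scale, with differences of -0.25 and -0.22. For Chgb, controls 1 and 2 lay at -0.27 and -0.23, within the range of -0.29 to -0.21 of the knockouts, and controls 3 and 4 at 0.18 and 0.16. Chga and Scg3 differed by 0.032 and 0.0020, a sign opposite to that of their unscaled differences.

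**Figure D3:**
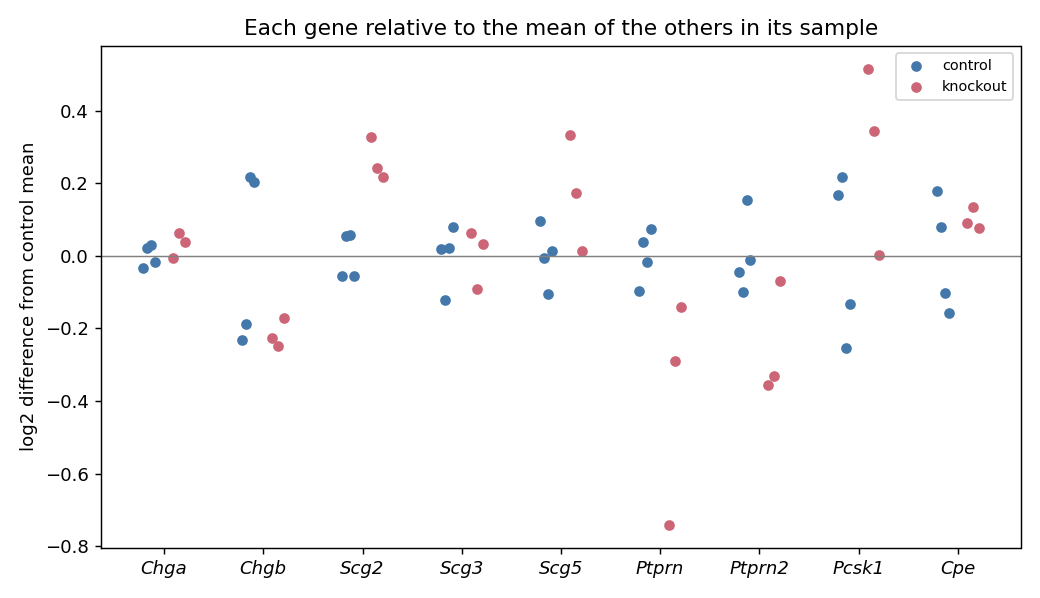
Each gene's log2 value minus the mean of the other 8 genes in its sample, shown as the difference from the control mean (vertical axis, log2 units), for 4 control samples (blue) and 3 knockout samples (red). All red points lie above the blue points for Scg2 and below them for Ptprn, and the colours overlap in the other 7 genes.

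Other genes of the granule pathway were read from 5 lists. No member of any of them passed the test over all genes. Their counts are read against those of all genes, of which 68.4% had a positive difference, with a median of 0.077. Genes above the median signal had a median of 0.16. At an unadjusted p under 0.05, 11.6% of all genes were higher in knockout islets and 2.14% were lower. All 5 measured cargo genes outside the set had positive differences, and their median was 0.22. At an unadjusted p under 0.05, 1 of the 5 was higher and 0 were lower. That gene was Resp18, an endocrine granule protein related to the luminal part of Ptprn, which differed by 0.35 (SE 0.14, limma, adjusted p = 0.362). Ins2 differed by 0.22 (SE 0.12) and Nucb2, the precursor of nesfatin, by 0.36 (SE 0.22). When controls 3 and 4 were left out the list's median was 0.037, with 3 positive and 2 negative, and Resp18 differed by 0.19 (SE 0.14), Ins2 by 0.054 (SE 0.11) and Nucb2 by 0.037 (SE 0.16). The probe set of Ins2 is also near the top of the scale, so the limit on bright signals applies to it too.

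A further list held propeptide-processing enzymes outside the set and proteins related to them. Its 13 measured genes had a median of 0.011, or -0.067 without controls 3 and 4. In the values as deposited 7 were positive and 6 negative. At an unadjusted p under 0.05, 2 of the 13 were higher and 0 lower, near the 11.6% and 2.14% of all genes. Qpct, glutaminyl cyclase, which forms the pyroglutamate end of some peptide hormones, was at 5.89, 6.36, 5.68 and 5.89 in controls 1 to 4 and at 6.91, 6.96 and 6.61 in knockouts 5 to 7. All 3 knockouts lay above all 4 controls, on a dim probe set. It differed by 0.87 (SE 0.17, limma, adjusted p = 0.362), and by 0.70 (SE 0.18) without controls 3 and 4. Cpn1, a subunit of carboxypeptidase N, differed by 0.53 (SE 0.23), and by 0.15 (SE 0.13) without controls 3 and 4. Pcsk4, a convertase best known from germ cells, differed by -0.33 (SE 0.17), and by -0.056 (SE 0.12) without these controls. Furin, the convertase of the trans-Golgi network, differed by 0.011 (SE 0.14).

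The lists of granule biogenesis and acidification were mostly positive in the values as deposited. All 13 measured biogenesis genes had positive differences, where 68.4% of all genes did, with a median of 0.19, but 0 had an unadjusted p under 0.05, where 11.6% of all genes were higher. Vti1a, a SNARE of Golgi and endosome traffic, differed by 0.40 (SE 0.18), Arfip2, an arfaptin that binds the trans-Golgi membrane, by 0.19 (SE 0.09) and Vamp4, a SNARE found on immature granules, by 0.22 (SE 0.11). After quantile normalization 8 were positive and 5 negative, with a median of 0.024, and Arfip2 and Vamp4 differed by 0.0041 (SE 0.096) and 0.024 (SE 0.10). Leaving out control 3 alone gave a median of 0.057, with 10 positive and 3 negative. With controls 3 and 4 both left out the median was 0.075, with 9 positive and 4 negative, and Vti1a and Vamp4 differed by 0.13 (SE 0.13) and 0.14 (SE 0.13). Of 15 measured genes of the proton pump and the granule chloride exchanger, 13 were positive and 2 negative, where 68.4% of all genes were positive, and the median was 0.34, or 0.22 without control 3. At an unadjusted p under 0.05, 3 of the 15 were higher and 0 were lower, where 11.6% and 2.14% of all genes were. The proton pump subunit genes Atp6v1d, Atp6v0e and Atp6v1a differed by 0.80 (SE 0.34), 0.78 (SE 0.27) and 0.65 (SE 0.22). Quantile normalization gave 12 positive and 3 negative differences in the acidification list, with a median of 0.16, where that of all genes was 0.045. The mean of the acidification list had its lowest values, 10.27 and 10.46, in controls 3 and 4, with the remaining 5 samples at 10.89 to 11.07. With these controls left out its median was 0.079, with 0 genes at an unadjusted p under 0.05 in limma, and Atp6v1d differed by 0.24 (SE 0.20), Atp6v0e by 0.37 (SE 0.19) and Atp6v1a by 0.28 (SE 0.12). These pumps also serve lysosomes and other compartments.

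Transcription factors that act on neuroendocrine genes were positive for 4 and negative for 6 of 10 measured genes, and their median was -0.053, where 31.6% of all genes were negative. Myt1, a zinc finger factor of endocrine differentiation, was lower at an unadjusted p under 0.05, as were 2.14% of all genes, with a difference of -0.53 (SE 0.21, limma, adjusted p = 0.362), and Isl1 and Rfx3 differed by -0.29 (SE 0.16) and 0.35 (SE 0.29). Leaving out controls 3 and 4 gave -0.24 (SE 0.19), -0.053 (SE 0.12) and -0.059 (SE 0.23). Rest, the repressor of neuronal genes that also silences granins in cells outside the neuroendocrine system, differed by 0.081 (SE 0.17), and Neurod1, an activator of beta cell genes, by 0.0061 (SE 0.12).

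**Figure D4:**
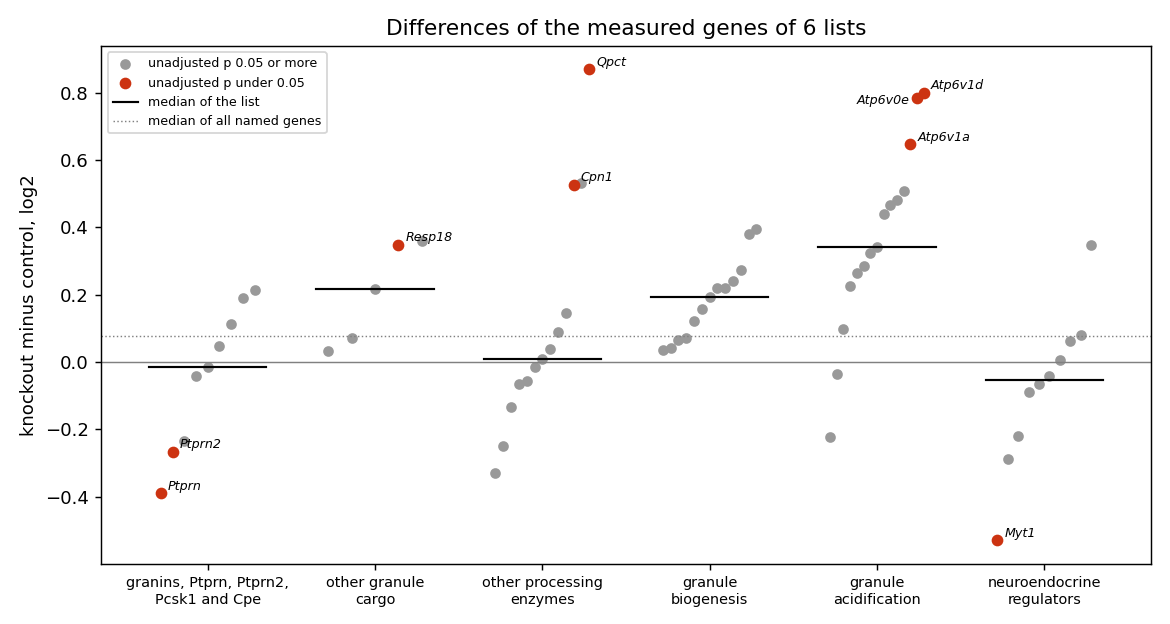
Knockout minus control difference in log2 units (vertical axis) of every measured gene of the set and of 5 other lists, ordered within each list, with list medians as black lines and the median of all genes dotted. Red points had an unadjusted p under 0.05 in limma. The set's median is -0.014, and those of the cargo, biogenesis and acidification lists are 0.22, 0.19 and 0.34.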

How the data were processed

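The authors deposited log2 values for 7 arrays, 1 value per probe set. Per the submitters' processing notes the tools were RMA and Affymetrix Expression Console, whose settings are unstated. RMA corrects background, normalizes between arrays and combines the probes of a set. That the scale is log2 follows from the range of the values.

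Of 23238 probe sets, 14939 had 1 symbol in the platform annotation, 989 several and 7310 none; 14884 matched RefSeq by Entrez ID and 0 symbols changed. The brightest probe set of each gene was kept (131 genes had several). The 3 knockout and 4 control samples were tested in limma 3.58.1 (R 4.3.3, lmFit and eBayes, two-sided, no covariates) with Benjamini-Hochberg adjustment over 14807 genes and a threshold of 0.05. The script was tested on simulated data. Intervals are 95%. Sample numbers are not shared between groups and the labels name no batch.

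The genes and lists were chosen with earlier results of these data known, so lists were only counted. The text names all genes of the set, the FoxO genes and the 3 genes closest to the member with the smallest p. It also names the 3 genes with the smallest p of each pathway list and the 3 brightest of each cell type list. Furin, Rest, Neurod1, G6pc2, Slc30a8 and Pou3f4 were named after their values were seen. Alternatives changed the probe set rule, normalization, centring, dim gene filter, prior, weights, moderation, features tested and samples.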

Additional observations from a re-analysis of the deposited data

How the results depend on the processing

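No gene of the set passed limma's threshold in any of 16 alternatives, over which the adjusted p of the 9 genes ran from 0.206 to 0.998. Of 144 differences recomputed, 12 had the other sign, all in Chga, Scg3, Scg5, Pcsk1 and Cpe. Ptprn, Ptprn2 and Chgb stayed negative and Scg2 positive. The unadjusted p of Ptprn was under 0.05 in 15 of 16 alternatives, that of Ptprn2 in 7 and that of Chgb in 2. The other signs were 0.00077 and 0.0018 for Chga without controls 1 and 2 in turn (range -0.033 to 0.0018 with single samples left out), and 0.032 relative to the other genes of the set. Scg3 was at 0.022 without knockout 6 (range -0.074 to 0.022) and at 0.0020 on the relative scale. Scg5 was at -0.076 after quantile normalization and -0.024 after centring, and Pcsk1 at -0.011 without controls 3 and 4. Cpe was at -0.035 after quantile normalization, -0.089 after centring, -0.049 with array weights, -0.0065 without control 3, -0.011 without control 4 (range -0.011 to 0.13) and -0.12 without both. Outside these 144 differences, Chga and Scg3 were at 0.032 and 0.0020 relative to the other genes of the set. Rfx3, from another list, was at -0.059 without controls 3 and 4.

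The number of genes lower at an unadjusted p under 0.05, 2 in the values as deposited, was 3 with each sample centred and after quantile normalization, 1 with dim genes left out, with a trended prior and without controls 3 and 4, and 0 to 2 with single samples left out, the 0 being without knockout 5. With an unmoderated test 1 gene was higher, Scg2. The matching shares of all genes are not given for these settings, so the moves of these counts cannot be read against them. With each sample centred the median of the set was -0.15, against -0.058 for all genes, 4 genes of the set were lower without overlap (Chga, Chgb, Ptprn and Ptprn2), where 6.76% of all genes were, and 0 were higher, where 4.81% were. With single samples left out the median ran from -0.033 to 0.022. Without controls 3 and 4, 5 genes were lower without overlap, Chga and Cpe in addition, where 6.15% of all genes were. Over all genes 1 passed in the values as deposited, against 2 with centring and with array weights, 0 with an unmoderated test, with all probe sets and without controls 3 and 4, and 0 to 1 with single samples left out. The cause of these changes was not tested. No paired analysis was possible because the groups share no sample numbers. RMA values carry no measure of signal over background, and the 9 probe sets are bright.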
